A study of Mus musculus with 8 samples.

Results

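RNA sequencing compared primary mouse embryonic fibroblasts lacking Zbp1 with wild type fibroblasts. The comparison used 4 of the 8 libraries of the series, 2 labelled WT and 2 labelled Zbp1-/-, assigned by the genotype in their labels. The cultures were untreated, came from embryos of embryonic day 14 and were harvested after 2 passages. The other 4 libraries, 2 of cells heterozygous for Tfam (Tfam+/-) and 2 of cells that also lacked Zbp1 (Tfam+/-Zbp1-/-), were grown the same way. They entered the estimate of spread and the filter on low values, which asked for an average of 10 or more across the 8 libraries, and they gave a further pair of groups in which Zbp1 was deleted. The sources used here do not name the Zbp1 allele, the mouse strain or the sex of the embryos, nor whether libraries of equal genotype came from different embryos. The p-values therefore measure the spread between these libraries, which may be technical.

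Zbp1 encodes a cytosolic sensor that binds nucleic acids in the left-handed Z form. After binding it can recruit the kinase Ripk3 through a shared interaction motif, which leads to necroptosis through Mlkl or to apoptosis through Fadd and Casp8. Its own transcription is induced by interferon, and unstimulated fibroblasts usually hold little of it. Embryonic fibroblast cultures are mesenchymal cells from many parts of the body that secrete and remodel collagen-rich matrix, and early passages can carry other embryonic cell types.

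Values are the authors' normalized counts per gene. The sources used here do not state how they were scaled, or whether gene length entered. Changes are differences of log2(normalized count + 1), Zbp1-/- minus WT, with the standard error (SE) of limma, and they understate the change of low genes. A gene was called when its adjusted p was under 0.05 and both Zbp1-/- libraries lay on the same side of both WT libraries. Libraries that lie so are termed separate.

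Library totals in the comparison were 17091385 and 17125868 normalized counts in WT and 18303036 and 17820339 in Zbp1-/-, and the median change over the 13267 genes tested was 0.11. The WT libraries were very close to each other, with a median absolute log2 difference of 0.07 per gene, against 0.32 between the Zbp1-/- libraries. Over 6658 genes of 100 to 1000 normalized counts the WT pair had a mean chi-square of 1.33, little above the 1 that sampling alone gives, and 19.8 was found for the Zbp1-/- pair. The labels list the WT libraries as 2 samples and they were used as such, but whether they are separate cultures or preparations of the same RNA cannot be told apart, since the chi-square test (p = 5.6e-66) covers counting error only. With the WT pair and the similarly close Tfam+/-Zbp1-/- pair each averaged to 1 sample, 0 genes were called by limma and 458 had an unadjusted p under 0.05. Zbp1-/- replicate 2 carried a shift across many genes that it shared with Tfam+/- replicate 1, so the change seen in Zbp1-/- replicate 1 is given beside group results.

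**Figure D1:**
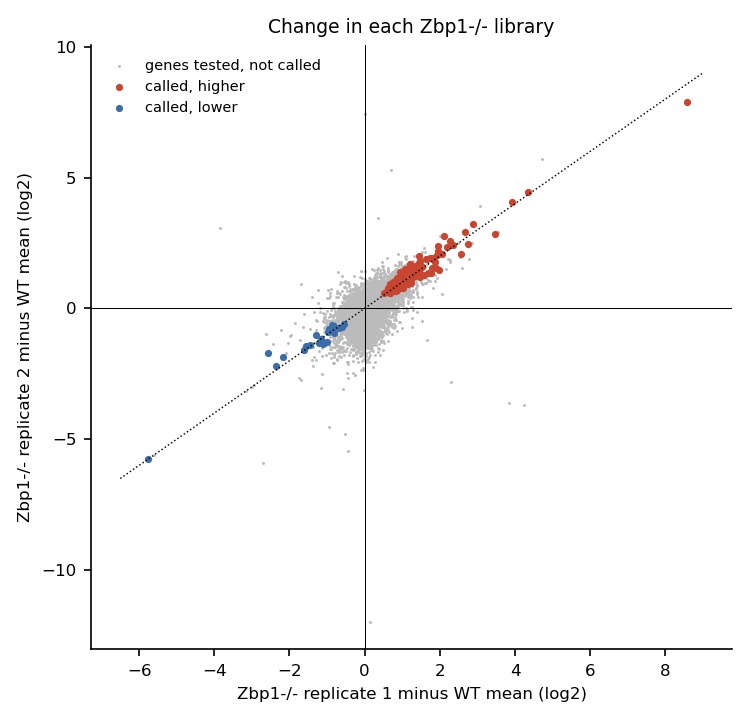
Each point is a tested gene, with the log2 change of Zbp1-/- replicate 1 from the WT mean on the x axis and that of replicate 2 on the y axis, called genes in red (higher) or blue (lower) and the dotted line for equal change. The call rule itself places the 141 called genes in the 2 quadrants in which both libraries changed the same way. The cloud of uncalled genes is wide, as the pair's median absolute difference of 0.32 describes.

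The targeted gene was near the lower limit of measurement in both genotypes. Zbp1 stood at 7.34 and 3.19 normalized counts in WT and at 3.79 and 1.03 in Zbp1-/-, so the genotypes overlapped. The change was -0.92 (SE 0.60, limma adjusted p = 0.401), and the gene passed the filter on low values only through the Tfam+/- libraries. At this level a loss of the transcript was not detectable in this comparison, and the label could not be checked from it. In the Tfam+/- cells Zbp1 stood at 64.6 and 69.8, and in Tfam+/-Zbp1-/- at 0.862 and 2.69, which do not overlap. Tfam, which was left intact in both genotypes compared, stood at 629 and 610.1 in WT and 675 and 471 in Zbp1-/- (change -0.14, adjusted p = 0.693).

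Of 13267 genes tested, 141 were called (1.06%), 119 of them higher in Zbp1-/- (0.897% of genes tested) and 22 lower (0.166%). Libraries were separate for many more genes, 42.1% higher and 16.8% lower, 60.6% of genes had a change above 0, and 2619 genes (19.7%) had an unadjusted p under 0.05. Read after their values were seen, the called genes included Ifi202b, listed above 0 only in the Zbp1-/- libraries, the growth factor and Wnt binders Igfbp2 and Sfrp2, and the matrix genes Prelp and Fbn2. Rescaling with trimmed means of M-values, which took the median of all genes to -0.00, left 86 called genes with 73.3% of them higher, against 84.4% as deposited. No gene was called without WT replicate 1 or without WT replicate 2, 28 and 9 were called without Zbp1-/- replicate 1 or 2, and 223 and 220 without Tfam+/- replicate 1 or 2. Without Tfam+/-Zbp1-/- replicate 1 or 2, which enter through the pooled spread, 1 gene was called. A fit of the 6 libraries that did not carry the shift held 1 Zbp1-/- library, so it gives no further support for the 141 calls. The median change of all genes in it was 0.11.

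Ifi202b, an interferon-inducible gene of the Ifi200 (PYHIN) family of nucleic acid sensors, stood apart from every other gene that rose. The table lists 0 for it in both WT libraries, 380.4 and 238 in Zbp1-/-, and 0 in all 4 libraries of the Tfam+/- and Tfam+/-Zbp1-/- cells (limma adjusted p = 0.00726). No fold is given against a group at 0. Ifi202b passed the filter on low values only through the Zbp1-/- libraries, and the other 3 genotypes, all at 0, add no spread to its test. Ifi202b has near-identical relatives, and the sources used here do not say how reads were shared among them. None of its tested relatives was called. Ifi203 had 24.6 and 36.3 in WT and 67.5 and 56.3 in Zbp1-/-, whereas Ifi211 had 327 and 366 in WT and 195 and 139 in Zbp1-/-. Ifi209 was at 11.4 and 19.8 in WT and at 6.35 and 1.83 in Zbp1-/-. Of 9 PYHIN genes tested Ifi202b was the 1 called. Libraries were separate and higher for 4 (44.4%, near the 42.1% of all genes) and separate and lower for 2 (22.2%, against 16.8%). The median change was 0.48 in Zbp1-/- replicate 1 and -0.44 in replicate 2.

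Promoters are shown for Ifi202b, the interferon-stimulated genes Slfn5 and Oas1a, and Ankrd1, a target of the YAP and TEAD transcription factors. Each runs from 250 bases before to 50 after the start site in RefSeq on GRCm38.p6 (mm10), 5′ to 3′ on the strand of the gene. Capitals mark matches, on either strand, to a pair of GAAA copies with any 2 bases between them (the core of the interferon-stimulated response element), TTCNNNGAA (gamma-activated site) or CATTCC (TEAD motif). Of 32851 promoters of 300 bases in the table, 3.44% held the first, 8.3% the second and 14.7% the third. The Ifi202b window (chr1:173982795-173983094, minus strand) held 0 matches to the first motif, 1 to the second and 1 to the TEAD motif. The Slfn5 window (chr11:82951852-82952151, plus strand) held 1 match to the interferon-stimulated element. The Oas1a window (chr5:120907476-120907775, minus strand) held 2 such matches that overlap each other and 1 gamma-activated site. The Ankrd1 window (chr19:36119795-36120094, minus strand) held 2 TEAD matches. A match describes the letters in the window and no binding was measured.
Ifi202b: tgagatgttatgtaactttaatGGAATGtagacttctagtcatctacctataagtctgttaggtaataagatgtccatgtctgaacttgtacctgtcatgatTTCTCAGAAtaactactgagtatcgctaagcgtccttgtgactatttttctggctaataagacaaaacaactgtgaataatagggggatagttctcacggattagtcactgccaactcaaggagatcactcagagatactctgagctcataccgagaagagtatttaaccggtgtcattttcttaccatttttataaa
Slfn5: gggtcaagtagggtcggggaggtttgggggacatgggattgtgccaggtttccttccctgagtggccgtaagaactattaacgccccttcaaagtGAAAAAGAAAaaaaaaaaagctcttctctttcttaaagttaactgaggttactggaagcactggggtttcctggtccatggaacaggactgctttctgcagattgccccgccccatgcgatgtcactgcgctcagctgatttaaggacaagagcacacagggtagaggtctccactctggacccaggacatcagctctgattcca
Oas1a: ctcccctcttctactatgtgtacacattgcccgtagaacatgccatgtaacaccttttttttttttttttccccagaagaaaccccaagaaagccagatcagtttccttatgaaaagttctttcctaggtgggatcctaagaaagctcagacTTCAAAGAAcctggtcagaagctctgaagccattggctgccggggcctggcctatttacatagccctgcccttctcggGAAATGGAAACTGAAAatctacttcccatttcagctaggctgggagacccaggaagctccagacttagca
Ankrd1: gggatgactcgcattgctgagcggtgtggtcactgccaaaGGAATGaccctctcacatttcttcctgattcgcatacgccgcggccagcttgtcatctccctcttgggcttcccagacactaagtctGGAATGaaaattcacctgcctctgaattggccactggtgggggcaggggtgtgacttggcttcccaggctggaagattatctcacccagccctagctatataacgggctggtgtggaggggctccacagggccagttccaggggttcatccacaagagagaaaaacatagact

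Several of the largest rises were in genes that were nearly silent in WT. Phyhip, which encodes a partner of the peroxisomal enzyme phytanoyl-CoA hydroxylase, had 0.953 and 3.62 in WT and 60.4 and 65.3 in Zbp1-/- (change 4.41, SE 0.50, limma adjusted p = 0.0187). B3gat1, a glucuronyltransferase that makes the HNK-1 carbohydrate, had 2.88 and 0 in WT and 28.7 and 31.9 in Zbp1-/- (change 3.99). B3gat1 passed the filter on low values only through the Zbp1-/- libraries, so its call is not independent of its rise. Entpd3, an ectonucleotidase, rose from 2.93 and 7.42 to 41.4 and 52.3 (change 3.05). In each of these genes the lower Zbp1-/- library was several times the higher WT library. They were named for the size of that gap, so it is no separate support. The X-linked gene Xlr3b, which belongs to a multicopy family and is uncertain for that reason, was at 8.14 and 10.7 in WT and 113 and 72.5 in Zbp1-/-. Adrb3, the beta-3 adrenergic receptor of adipocytes, was at 4.81 and 7.36 in WT and 31.0 and 34.8 in Zbp1-/- (change 2.28).

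Among the rises were genes for secreted proteins that bind growth factors. Igfbp2, which binds insulin-like growth factors outside the cell, had 534 and 563 normalized counts in WT and 2365 and 3741 in Zbp1-/- (change 2.44, SE 0.28, limma adjusted p = 0.0195). The lower Zbp1-/- library was far above both WT libraries, a gap for which Igfbp2 was named, so it is no separate support. Of the 6 Igfbp genes tested, a family looked at after its values were seen, 3 were called: Igfbp2, Igfbp3 (change 0.89) and Igfbp4 (change 0.85). Igfbp5 (change 0.48) and Igfbp6 (change 0.46) were separate and higher without being called, and Igfbp7 (change -0.15) was separate and lower. Sostdc1, a secreted antagonist of BMP and Wnt signals, had 8.18 and 7.80 in WT and 59.9 and 49.0 in Zbp1-/- (change 2.62, SE 0.21). The secreted Wnt binder Sfrp2 had 194 and 205 in WT and 549.7 and 539 in Zbp1-/- (change 1.44), and Sfrp1 had a change of 1.03. Frzb and Sfrp4 of the same family were tested and not called (changes -0.11 and 0.49). Among the called genes, read after their values were seen, were also the ligands Bmp4 (change 0.96) and Wnt4 (change 1.01), the Wnt antagonist Dkk3 (change 0.55), the R-spondin receptor Lgr5 (change 1.72) and the Notch-related inhibitor of adipogenesis Dlk1 (change 1.45).

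**Figure D2:**
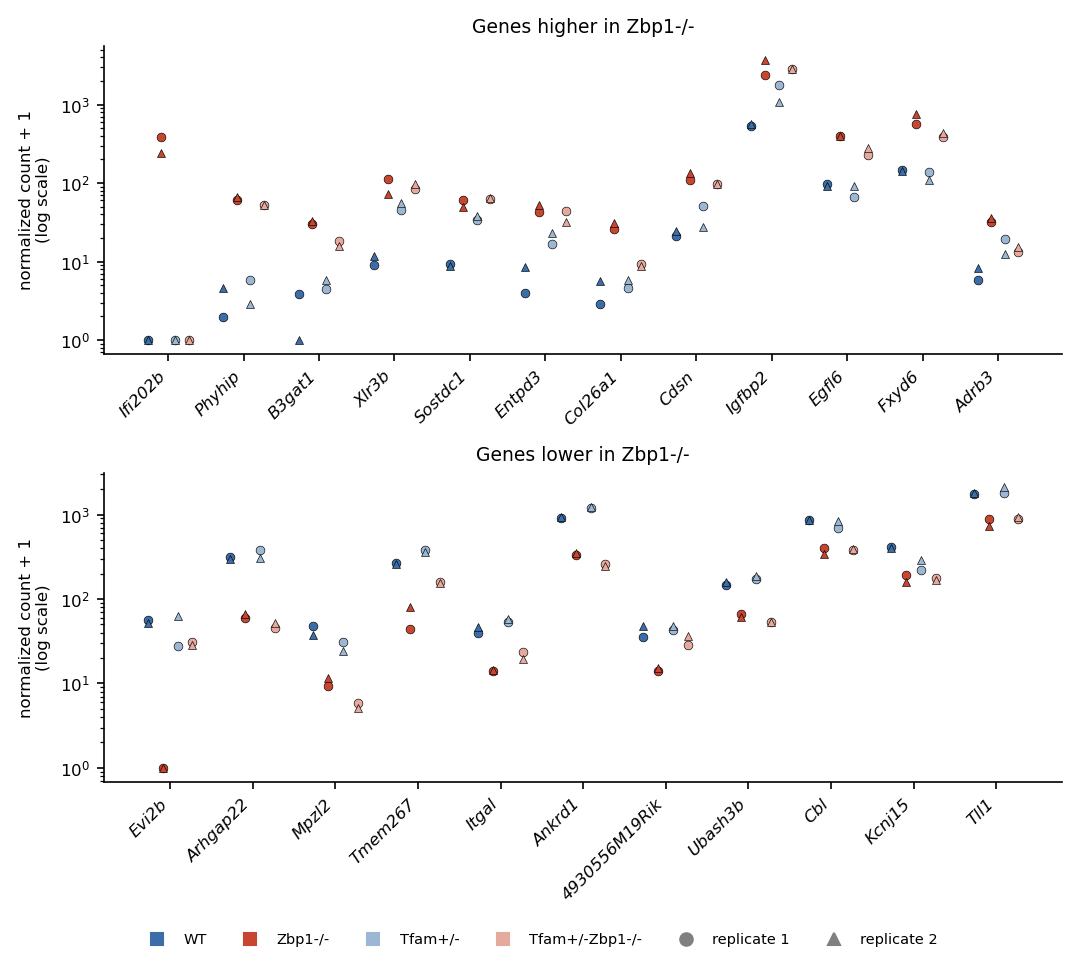
Normalized counts of the called genes with the clearest separation are drawn on a log axis of normalized count + 1, with 1 point per library of all 8 (colour for genotype, circle or triangle for replicate 1 or 2). Among the rises Igfbp2 moved from 534 and 563 in WT to 2365 and 3741 in Zbp1-/-, and among the falls Arhgap22 moved from 309.7 and 299 to 58.6 and 66.1.

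Extracellular matrix genes were mostly higher in Zbp1-/-. Of 41 tested members of the list of collagens and matrix proteins, 38 had a change above 0 (60.6% of all genes tested did). Libraries were separate and higher for 34 (82.9%, against 42.1% of all genes) and separate and lower for 1 (2.44%, against 16.8%). Of the 41 genes, 3 were called higher and 0 lower (0.897% and 0.166% of all genes were). The median change was 0.41, against 0.11 over all genes tested, and 0.32 in Zbp1-/- replicate 1 alone. With the rescaling by trimmed means the list's median was 0.30. Prelp, a leucine-rich proteoglycan that anchors basement membranes, had 239.5 and 232 in WT and 786 and 897 in Zbp1-/- (change 1.83, SE 0.13, limma adjusted p = 0.00757). The microfibril gene Fbn2 had 11358 and 11347 in WT and 22129 and 20593 in Zbp1-/- (change 0.91). The basement membrane collagen Col15a1 rose from 49.5 and 60.3 to 131 and 165 (change 1.41). The main fibrillar collagens moved less and were not called. Col1a1 had 126351 and 126567 in WT and 156157 and 193671 in Zbp1-/-, and Col3a1 had 61449.6 and 61136 in WT and 80026 and 88481 in Zbp1-/- (change 0.46, adjusted p = 0.0895). Lox, the enzyme that crosslinks collagen, had 48804 and 49603 in WT and disagreed between the Zbp1-/- libraries, at 53302 and 25135. Ogn likewise had 7309 in Zbp1-/- replicate 1 and 2472 in replicate 2, with 7017 and 6920 in WT.

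Other matrix genes outside the list were called higher and were read after their values were seen. Egfl6, a secreted integrin ligand of basement membranes, had 95.5 and 91.1 in WT and 393 and 399 in Zbp1-/- (change 2.07, SE 0.19, limma adjusted p = 0.013). Col26a1 was low in WT at 1.92 and 4.58 and stood at 24.8 and 29.7 in Zbp1-/- (change 2.80). Like B3gat1, Col26a1 passed the filter on low values only through the Zbp1-/- libraries. Tnn, a tenascin, had a change of 1.27, Dpt, which binds decorin, 1.25, the basement membrane laminin chain Lama4 0.70 and the nidogen Nid2 0.79. The Fraser complex genes Fras1 and Frem1, which join epidermis to dermis in the embryo, had changes of 0.76 and 1.41. Complement genes, which are not matrix genes, were also called, with Serping1, the C1 inhibitor, at 1.07 and the C1s protease gene C1s1 at 0.78.

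Of 22 matrix proteases and inhibitors tested, 2 were called higher and 1 lower (0.897% and 0.166% of all genes were). Libraries were separate and higher for 63.6% (42.1% of all genes) and separate and lower for 18.2% (16.8% of all genes). The list's median change was 0.41, against 0.11 over all genes tested, with 0.45 in Zbp1-/- replicate 1 and 0.33 in replicate 2. Mmp3 (stromelysin) had 176 and 195 in WT and 368 and 357 in Zbp1-/- (change 0.96, limma adjusted p = 0.0438). Adamts9, which cleaves proteoglycans, had 545 and 563 in WT and 1129 and 948 in Zbp1-/- (change 0.90). Mmp2, Mmp14 and Timp2 were separate and higher with changes of 0.55, 0.50 and 0.41 and were not called.

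The genes called lower included classical targets of the YAP and TEAD factors. Ankrd1 had 903 and 928 in WT and 331 and 346 in Zbp1-/- (change -1.43, SE 0.10, limma adjusted p = 0.00757). Ctgf, a secreted matricellular protein, had 9523 and 10095 in WT and 6646 and 6410.2 in Zbp1-/- (change -0.59, SE 0.08). By the call rule, neither gene had overlapping libraries. Of 18 contractile and myofibroblast genes tested these were the 2 called, both lower (0.166% of all genes were called lower and 0.897% higher). Libraries were separate and lower for 8 (44.4%, against 16.8% of all genes) and separate and higher for 0 (42.1% of all genes). The median change was -0.17 (-0.22 in Zbp1-/- replicate 1 and -0.20 in replicate 2). The third well-known gene of this set, Cyr61, did not differ beyond its spread, at 6100 and 6034 in WT and 5708 and 6489 in Zbp1-/- (change 0.00). Acta2 (change -0.23) and Cnn1 (change -0.61, adjusted p = 0.11) were separate and lower without being called, and Tagln overlapped at 27843 and 27833 in WT and 22542 and 31184 in Zbp1-/-.

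Among the genes that fell, Arhgap22, a GTPase-activating protein for Rac, had 309.7 and 299 in WT and 58.6 and 66.1 in Zbp1-/- (change -2.27, SE 0.16, limma adjusted p = 0.00757). Mpzl2, a cell adhesion molecule, fell from 46.8 and 36.9 to 8.36 and 10.6 (change -2.03). Cbl, an E3 ubiquitin ligase that turns off receptor tyrosine kinases, fell from 861 and 857 to 399 and 336 (change -1.23). Ubash3b, a phosphatase that binds Cbl, fell from 144 and 159 to 64.6 and 59.9 (change -1.27). Tll1, a tolloid-like protease that activates BMPs and processes procollagen, fell from 1765 and 1794 to 896 and 724 (change -1.14), and the potassium channel Kcnj15 fell from 408 and 397 to 189.6 and 159.7 (change -1.21). The non-coding 4930556M19Rik had a change of -1.51, with an adjusted p of 0.0495, near the threshold.

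Evi2b, a transmembrane protein gene inside an intron of Nf1, was at 54.9 and 51.5 in WT and listed at 0 in both Zbp1-/- libraries (limma adjusted p = 0.00757). The overlapping readthrough entry Evi2 was listed at 0 in WT while it stood at 37.7 and 29.2 in Zbp1-/-, and the other 4 libraries had 0. Evi2b is therefore uncertain, since reads of overlapping entries can be assigned to either. No fold is given for it.

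**Figure D3:**
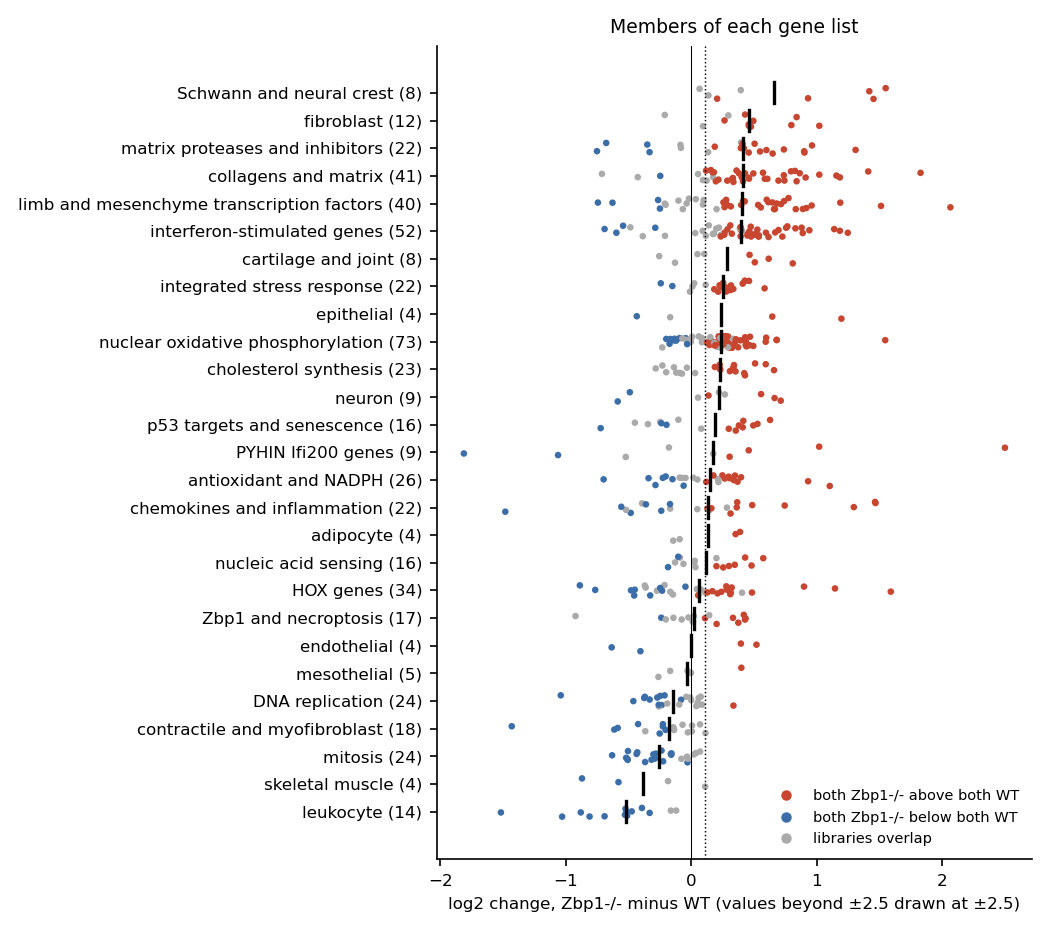
For each gene list the points are the log2 changes (Zbp1-/- minus WT) of its tested members, red or blue where libraries were separate and grey where they overlapped, the bar is their median and the dotted line the median of all genes tested. Leukocyte markers and mitosis genes lie mostly below 0, with medians of -0.52 and -0.26, and matrix and limb factor genes lie mostly above 0, with medians of 0.41 and 0.40.

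Leukocyte markers were lower as a group. All 14 markers tested had changes below 0, and 12 were separate and lower (85.7%, against 16.8% of all genes). The median was -0.52, with -0.53 in Zbp1-/- replicate 1 and -0.51 in replicate 2. Lyz2, the lysozyme of macrophages, was the 1 member called, at 2855 and 2844 in WT and 1625 and 1471 in Zbp1-/- (change -0.88, SE 0.10, limma adjusted p = 0.0193). Itgam had 154 and 166 in WT and 92.4 and 89.0 in Zbp1-/- (change -0.81), and Laptm5 had 293 and 281 in WT and 201 and 198 in Zbp1-/- (change -0.52). The summed level of the 14 markers was 5815 to 5898 in WT and 3631 to 3703 in Zbp1-/-. In bulk RNA, fewer cells of a type and less RNA per cell cannot be told apart. Other genes of leukocytes, picked from those called lower after their values were seen, were the integrin Itgal, with 38.6 and 45.7 in WT and 13 and 13.4 in Zbp1-/- (change -1.60), the fractalkine receptor Cx3cr1 (change -0.87) and Dock8, an exchange factor of immune cells (change -0.95). As a choice of falls alone, they add no support to the marker list. The part of the leukocyte signal in these and in Evi2b, which leukocytes also express, was not tested.

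**Figure D4:**
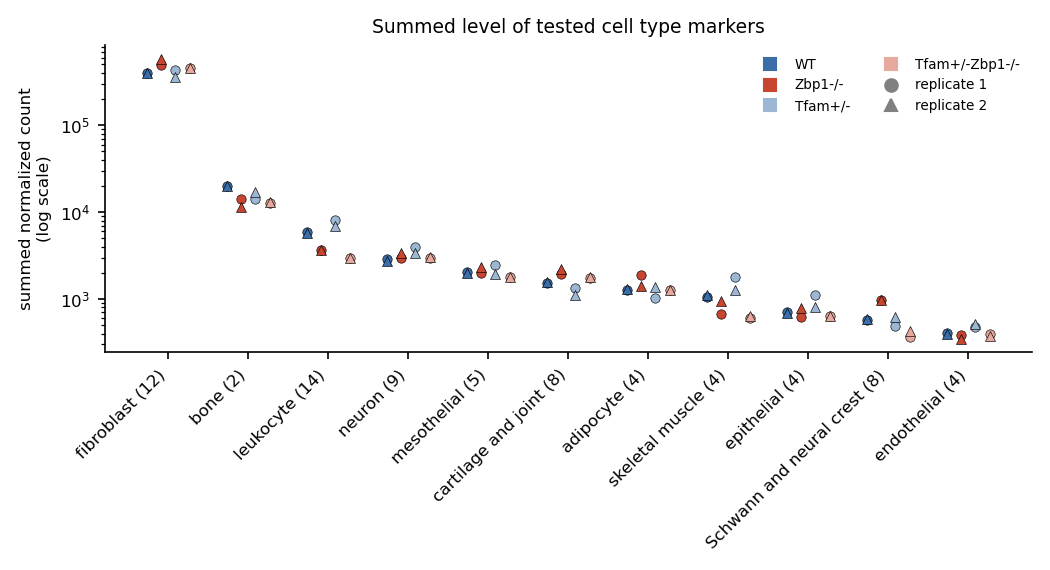
The summed normalized counts of the tested markers of each cell type are drawn on a log axis, with 1 point per library of all 8 (colour for genotype, circle or triangle for replicate). Leukocyte markers sum to 5815 and 5898 in WT and to 3631 and 3703 in Zbp1-/-, while fibroblast markers sum to 403351 to 403556 in WT and 491563 to 571406 in Zbp1-/-.

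Fibroblast markers were higher and defined both genotypes. Their summed level was 403351 to 403556 in WT and 491563 to 571406 in Zbp1-/-. Of 12 markers 9 were separate and higher (75%, against 42.1% of all genes), with a median change of 0.46 (0.33 in Zbp1-/- replicate 1). The list shares Col1a1, Col1a2, Col3a1, Dcn and Lum with the matrix list, and the 3 collagens make up most of its sum (Col1a2 had 114695 and 112969 in WT and 140381 and 167117 in Zbp1-/-), so it largely repeats the matrix result. Pdgfra, the growth factor receptor of mesenchymal cells, was called, at 3497 and 3494 in WT and 5589.6 and 6602 in Zbp1-/- (change 0.80, SE 0.12, limma adjusted p = 0.0386). Dcn had 2357 and 2334 in WT and 4772 and 3690.5 in Zbp1-/- without being called (adjusted p = 0.079). Most lists of other cell types held both members at 0 and members well above it. Of 15 skeletal muscle markers Ckm was at 0 in all 4 libraries and 11 had a mean under 10, but Acta1 had 478 and 469.8 in WT and 229 and 292 in Zbp1-/- (change -0.87, adjusted p = 0.0823), and the list summed to 1103 to 1134 in WT and 697 to 972 in Zbp1-/- (median change of those tested -0.38). Of 7 bone markers Bglap was at 0 and 5 had a mean under 10, and the sum, nearly all of it from Spp1, was 20104 to 20200 in WT and 11584 to 14050 in Zbp1-/- (median -0.49 over the 2 tested). Of 11 cartilage and joint markers Matn1 and Ucma were at 0, but Col2a1 had 884 and 913 in WT and 1193 and 1591 in Zbp1-/-, and the sum was 1509 to 1588 in WT and 1965 to 2208 in Zbp1-/-. Epithelial markers, with Esrp1 at 0, summed to 715 to 727 in WT and 651 to 814 in Zbp1-/-. Endothelial markers, with Cldn5 at 0, summed to 409 to 411 in WT and 361 to 397 in Zbp1-/-. Adipocyte markers, with Adipoq and Plin1 at 0, summed to 1280 to 1289 in WT and 1405 to 1877 in Zbp1-/-, most of it from Lpl. Neuron markers summed to 2773 to 2861 and 2980 to 3388, mesothelial markers to 2005 to 2055 and 2000 to 2317, and 7 of 8 erythroid genes were at 0. None of these markers was called, and their part in other results was not tested.

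Genes of Schwann cells and their neural crest precursors were higher. All 8 tested had changes above 0 (60.6% of all genes did), and 5 were separate and higher (62.5%, against 42.1% of all genes). The median was 0.66, with 0.85 in Zbp1-/- replicate 1 and 0.64 in replicate 2. Ngfr, the p75 neurotrophin receptor, was called, at 116 and 114 in WT and 266 and 374 in Zbp1-/- (change 1.45, SE 0.18, limma adjusted p = 0.0248). Sox10, the defining transcription factor of the lineage, had 21.3 and 31.5 in WT and 65.2 and 92.7 in Zbp1-/- (change 1.55, adjusted p = 0.0747), and Erbb3 had 48.5 and 64.0 in WT and 104 and 110 in Zbp1-/-. The summed level of the list was 585 to 595 in WT and 975 to 989 in Zbp1-/-. The part of these cells in the other rises was not tested.

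Transcription factors that pattern limb and body wall mesenchyme were higher more often than lower. Of 40 tested, 26 were separate and higher (65%, against 42.1% of all genes) and 4 separate and lower (10%, against 16.8%). In this list 4 were called higher and 0 lower (0.897% and 0.166% of all genes were). The median change was 0.40, with 0.41 in Zbp1-/- replicate 1 and 0.31 in replicate 2. Osr2 had 59.4 and 53 in WT and 219 and 259 in Zbp1-/- (change 2.06, SE 0.19, limma adjusted p = 0.013). Pax3, a factor of muscle and neural crest precursors, had 49.0 and 43.5 in WT and 149.9 and 119 in Zbp1-/- (change 1.51). Alx4 had a change of 0.89 and Irx3 of 0.92. Of 34 HOX genes tested 0 were called, with 5 at an unadjusted p under 0.05 (19.7% of all genes were). Libraries were separate and higher for 15 (44.1%, near the 42.1% of all genes) and separate and lower for 9 (26.5%, against 16.8%). HOX genes moved in both directions: Hoxd3 was at 23.3 and 22.3 in WT and 71.3 and 69.8 in Zbp1-/- (change 1.59, adjusted p = 0.0603), whereas Hoxa5 was at 239 and 265 in WT and 152 and 121 in Zbp1-/- (change -0.89). The HOX median of 0.06, with 0.09 in each Zbp1-/- library alone, was -0.05 after the rescaling by trimmed means.

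Interferon-stimulated genes were mostly higher in Zbp1-/-, but 1 of them was called. Of 52 tested, 45 had changes above 0 (86.5%, against 60.6% of all genes). Libraries were separate and higher for 34 (65.4%, against 42.1% of all genes) and separate and lower for 4 (7.69%, against 16.8%). The median change was 0.40, with 0.39 in Zbp1-/- replicate 1 and 0.42 in replicate 2. The called gene was Slfn5, a Schlafen family member, at 48.5 and 45.3 in WT and 116 and 109 in Zbp1-/- (change 1.25, SE 0.18, limma adjusted p = 0.0378). Oas1a, an antiviral 2-5A synthetase, had 18.3 and 17.4 in WT and 40.0 and 41.0 in Zbp1-/- (change 1.14, adjusted p = 0.0533), and the peptide transporter gene Tap1 had 247 and 239 in WT and 415 and 489 in Zbp1-/- (change 0.89). The levels of several classical members stayed low in all 4 libraries: Isg15 was at 49.0 and 71.7 in WT and 80.9 and 103 in Zbp1-/-, and Mx1 was between 1.02 and 4.15. Cxcl10, by contrast, was at 38.8 and 35.0 in WT and 21.0 and 24.0 in Zbp1-/- (change -0.69), and Rsad2 had a change of -0.54, neither of them called.

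The lists of necroptosis genes and of nucleic acid sensing genes, the latter without the PYHIN genes described above, held no called gene. Of 17 necroptosis genes tested 0 were called by limma and 1 had an unadjusted p under 0.05, and the median change of 0.02 was 0.11 in Zbp1-/- replicate 1 alone and -0.09 after the rescaling. Ripk3, the kinase that Zbp1 recruits, had 1283 and 1273 in WT and 1376 and 1882 in Zbp1-/- (change 0.33, adjusted p = 0.366), and its substrate Mlkl had 234 and 250.3 in WT and 233 and 243 in Zbp1-/- (change -0.02). Of 16 sensing genes tested 0 were called, with 0 at an unadjusted p under 0.05, and the median change was 0.12 in the fit and in Zbp1-/- replicate 1 alone. The adaptor Tmem173 (STING) had 721 and 725 in WT and 780 and 1017 in Zbp1-/-, and the RNA sensor Ifih1 was at 188 and 160 in WT and 208 and 120 in Zbp1-/-, with overlapping libraries.

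Mitosis genes were slightly lower. Of 24 tested, 18 were separate and lower (75%, against 16.8% of all genes) and 0 separate and higher (42.1% of all genes). The median change was -0.26, with -0.20 in Zbp1-/- replicate 1 and -0.27 in replicate 2. Of these genes 0 were called, with 6 at an unadjusted p under 0.05. Ccnb1, the cyclin that drives entry into mitosis, had 1714 and 1629 in WT and 1337 and 1028 in Zbp1-/- (change -0.51, adjusted p = 0.188). Kif20a, a kinesin of the spindle midzone, had 2202 and 2147 in WT and 1731 and 1794 in Zbp1-/- (change -0.30). The DNA replication list had a median of -0.14 (-0.12 in Zbp1-/- replicate 1 and -0.09 in replicate 2). Of its 24 genes 11 were separate and lower (45.8%) and 1 separate and higher (4.17%).

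Metabolic and stress lists had small medians, which differed between the Zbp1-/- libraries for oxidative phosphorylation and the stress response and were close for cholesterol synthesis. For 73 nuclear genes of oxidative phosphorylation the median change was 0.23, with 0.07 in Zbp1-/- replicate 1 and 0.38 in replicate 2, and 0 were called by limma, with 4 at an unadjusted p under 0.05. The integrated stress response list had a median of 0.25, with 0.12 and 0.40 in the 2 libraries, and 0 of its 22 genes were called. Cholesterol synthesis genes had a median of 0.23, with 0.21 and 0.26 in the 2 libraries and 14 of 23 separate and higher (60.9%, against 42.1% of all genes). Nnt, the mitochondrial transhydrogenase that makes NADPH from NADH, was the called member of the 26 antioxidant genes tested, at 947 and 928 in WT and 2070.2 and 1961 in Zbp1-/- (change 1.10, SE 0.12, limma adjusted p = 0.0183). Nnt lies on chromosome 13 from 119335527 to 119409257. Tmem267, which starts 0.153 Mb from the start of Nnt, went the other way, from 263 and 257 in WT to 42.9 and 79.9 in Zbp1-/- (change -2.13, limma adjusted p = 0.0246).

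Chromosome 9 held 6 of the genes called higher and 5 of the 22 called lower, 1.5% of its 734 tested genes, against 1.06% of all genes tested, and chromosomes 14 (1.79%), 1 (1.69%), 4 (1.6%) and 6 (1.55%) had larger shares. On chromosome 9 Cbl and Mpzl2 fell and their neighbour Fxyd6, a modulator of the sodium pump, rose, from 144 and 140.2 in WT to 556 and 746 in Zbp1-/- (change 2.17, SE 0.19, limma adjusted p = 0.013). Around Zbp1 itself, within 5 Mb on chromosome 2, 47 genes were tested. Of these 16 were separate and higher (34%, against 42.1% of all genes) and 10 separate and lower (21.3%, against 16.8%). The 1 called was Atp9a, a phospholipid flippase, at 352 and 355 in WT and 774 and 990.4 in Zbp1-/- (change 1.31, limma adjusted p = 0.0357). Outside that window, Ripor3, which starts 0.654 Mb from the start of Atp9a, was also called higher (change 1.73).

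The same genes were then read in the Tfam+/- background. Tfam+/-Zbp1-/- and Tfam+/- share no library with the groups compared above, but they entered the spread by which those genes were called. There 748 genes were called (5.64%), 440 higher (3.32%) and 308 lower (2.32%) in Tfam+/-Zbp1-/-. Without Tfam+/-Zbp1-/- replicate 1 or 2 the count was 13 or 12, without WT replicate 1 or 2 it was 359 or 360, and without Tfam+/- replicate 1 it was 467. Of the 119 genes that rose in Zbp1-/-, 105 (88.2%) were above 0 in that background too, where 67.8% of all genes tested were above 0. In it 99 of the 119 were separate and higher (42.4% of all genes tested were), 59 were called higher and 1 lower. Of the 22 that fell, 20 (90.9%) were below 0 there, where 32.2% of all genes were, 19 were separate and lower (13.5% of all genes), 16 were called lower and 1, Sim2, was called higher. The pooled spread favoured genes whose pairs were also close in the Tfam+/- background. Shares over all genes are therefore not a like baseline for the separate and called counts there. Arhgap22 was at 382 and 306 in Tfam+/- and at 44.9 and 51.2 in Tfam+/-Zbp1-/-, and Ankrd1 was at 1198 and 1218 and at 256 and 245. Phyhip was at 4.83 and 1.92 in Tfam+/- and at 51.2 and 51.2 in Tfam+/-Zbp1-/-, and Osr2 at 82.3 and 61.3 and at 255 and 244. These genes were separate against WT by the call rule, and their libraries were also separate in the Tfam+/- background in the same direction.

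**Figure D5:**
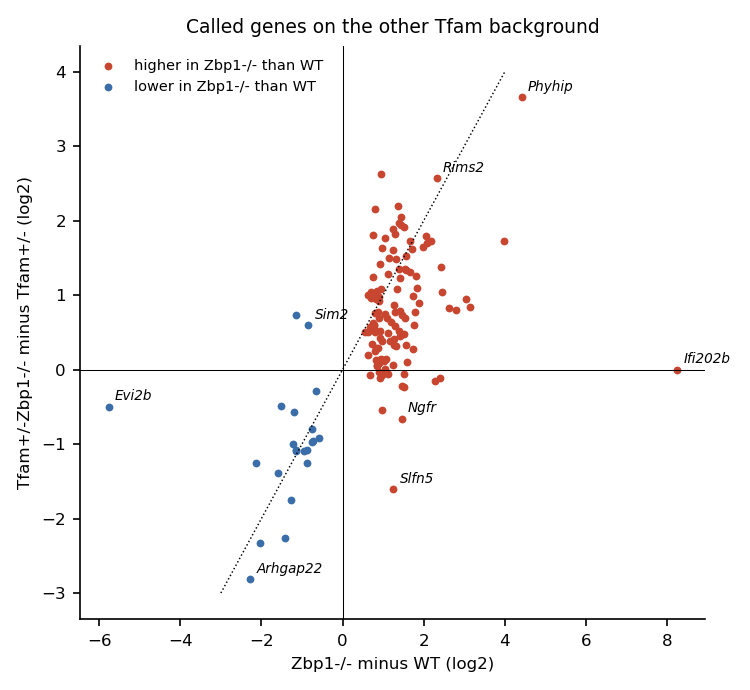
Each point is a called gene, with its log2 change in Zbp1-/- against WT on the x axis and in Tfam+/-Zbp1-/- against Tfam+/- on the y axis, red for genes that rose, blue for genes that fell and dotted for equal change. Most points lie in the quadrants of equal sign, 105 of the 119 genes that rose and 20 of the 22 that fell, and Ifi202b lies at 8.24 on the x axis and 0 on the y axis.

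The difference between the 2 backgrounds was tested as an interaction, and 88 genes (0.663%) passed limma's adjusted p of 0.05. Among them were 12 of the 119 that rose and 3 of the 22 that fell. Those genes were called on the change against WT, which the interaction also uses. Their counts therefore have no like baseline in the 0.663% of all genes. Without WT replicate 1, WT replicate 2, Zbp1-/- replicate 2 or either Tfam+/-Zbp1-/- library, 0 genes passed, without Zbp1-/- replicate 1, 56, and without Tfam+/- replicate 1, 33. Slfn5 rose with loss of Zbp1 in cells with both Tfam alleles and was lower in Tfam+/-Zbp1-/-, at 47.8 and 43.6, than in Tfam+/-, at 122 and 162 (difference of the changes -2.85, adjusted p = 0.0187). Oas1a was at 222 and 189 in Tfam+/- and at 25.2 and 30.0 in Tfam+/-Zbp1-/- (difference -3.99, adjusted p = 0.0128). Over the whole list of interferon-stimulated genes, 51 of the 52 were separate and lower in the Tfam+/- background, with a median change of -1.64. Against WT, 34 were separate and higher and 4 separate and lower, with a median of 0.40. Leukocyte markers were below 0 in both backgrounds, with medians of -0.52 and -1.39, and Schwann cell genes had medians of 0.66 and -0.34. Mitosis genes had medians of -0.26 and 0.23, and matrix genes of 0.41 and 0.33. These differences between list medians were not tested.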

How the data were processed

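RNA sequencing of 8 libraries of untreated mouse embryonic fibroblasts was used, 2 per genotype. Per gene, the authors deposited normalized counts, a signal that is never negative and not whole. Reads were aligned with STAR 2.6.1a to mm10, and Salmon is also named, per the submitters' processing notes. The sources used here do not state the counting rule, the use of strand or the scaling, so overlapping and multicopy genes are uncertain. In low values only 22.2% to 35.0% lay within 0.01 of a whole read, so reads were not recovered and no count test was run.

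Of 24972 genes, the 13267 whose mean over the 8 libraries reached 10 were tested (26 names turned into dates are not named). limma 3.58.1 in R 4.3.3, with a mean-variance trend, fitted log2(normalized count + 1) for the 4 genotypes together (4 residual and 2.775 prior degrees of freedom). Tests were two-sided with Benjamini-Hochberg adjustment over all genes tested. With 2 libraries against 2, the smallest p of an exact permutation test is 0.333. Library totals of 16752835 to 18303036 set the precision of low genes.

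Named genes were Zbp1, Tfam, the 12 called genes that rose and the 12 that fell with the largest smallest difference between any Zbp1-/- and any WT library, the 3 members of each list with the lowest p, and called neighbours of Zbp1. Of these, 2 genes are not reported here. Genes outside this rule were chosen after their values were seen. The comparison, the lists and the rule were chosen with earlier results of these data known. Replicate numbers did not pair the libraries. Alternatives were other pseudocounts (5 and 0.1), other filters (none, or a mean of at least 50), rescaling by trimmed means of M-values, no trend, a replicate block, a fit without the Tfam+/- genotypes, each library left out, a term for the 2 libraries with a shared shift, and the other 6 libraries. Averaging the WT pair and the Tfam+/-Zbp1-/- pair each to 1 sample was added after seeing the data. Gene positions (24407 names, 97.7%, matched) and promoters are from RefSeq on GRCm38.p6. The script was tested on simulated data.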

Additional observations from a re-analysis of the deposited data

Results flagged for a closer look

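The change with loss of Zbp1 differed between cells with both Tfam alleles and Tfam+/- cells in 8 of the named genes by limma's interaction term (change in the Tfam+/- background minus change against WT, on the log2(normalized count + 1) scale). Slfn5 differed by -2.85 (adjusted p = 0.0187). Oas1a differed by -3.99 (adjusted p = 0.0128) and Tap1, which loads peptides for antigen presentation, by -1.59 (adjusted p = 0.0434). Tap1 was at 614 and 472 in Tfam+/- and at 331 and 332 in Tfam+/-Zbp1-/-. Gap43, a growth cone protein, differed by -1.58 (adjusted p = 0.0193), with 594 and 548 in WT against 806 and 874 in Zbp1-/-, but 1178 and 1070.1 in Tfam+/- cells against 560.1 and 542 without Zbp1. Ngfr differed by -2.11 (adjusted p = 0.0299) and was at 104 and 107 in Tfam+/- cells but at 65.1 and 68.3 in Tfam+/-Zbp1-/- cells. Mmp3 differed by -1.50 (adjusted p = 0.0403) and was at 355 and 414 in Tfam+/- cells but at 291 and 239.6 in Tfam+/-Zbp1-/- cells. Evi2b differed by 5.26 (adjusted p = 0.0204), a value that depends on the pseudocount because it is listed at 0 in Zbp1-/-. For Ifi202b, listed at 0 in 6 of 8 libraries, the difference of -8.24 is its change against WT with the sign turned and is no further test. All 8 genes were named for their change against WT, which also enters the difference, so the differences are not independent of that choice. None of the 8 differences keeps an adjusted p under 0.05 without WT replicate 1 or WT replicate 2, since 0 genes passed in those fits.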

How the results depend on the processing

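Of the 108 named genes, all tested, those called kept their direction in every alternative, which the rule of separate libraries fixes where a library is left out, and the reversals were in 3 genes that were not called: the Des log2 change ran from -0.46 to 0.084 with each library left out, that of Runx2 from -0.63 to 0.0074 (0.0074 in the other 6 libraries), and that of Tfam from -0.39 to 0.12 (0.12 in the other 6 libraries and 0.092 with the shared term). The 141 calls became 87 with no filter, 86 with rescaling by trimmed means, 1 with only the 2 genotypes compared, 3757 with the term for the shared shift, 4548 in the other 6 libraries and 0 with the pairs averaged (458 at an unadjusted p under 0.05 by limma). Leaving out each library gave 0 to 223 calls, with 1103 and 1051 genes at an unadjusted p under 0.05 where WT replicate 1 or 2 was left out and 0 were called. In the Tfam+/- background the 748 calls became 359 with only the 2 genotypes compared, 4408 with the shared term, 5779 in the other 6 libraries, 0 with the pairs averaged, and 12 to 874 with each library left out. The 88 differences between backgrounds became 47 with no filter, 2240 with the shared term, 2534 in the other 6 libraries, 0 with the pairs averaged, and 0 to 126 with each library left out. The cause was not tested. Without the 2 shifted libraries, Zbp1-/- and Tfam+/- held 1 library each, so the spread there came from the WT and Tfam+/-Zbp1-/- pairs alone. With 2 libraries per genotype, changes of low genes are the least precise.

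Same-numbered libraries did not deviate together (correlation of replicate differences between WT and Zbp1-/- -0.01, and -0.70 to 0.06 over all pairs of genotypes), so the numbers do not pair them. With the replicate block, 1 gene was called in Zbp1-/- against WT, 351 in the Tfam+/- background and 0 for the difference between backgrounds.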

Other observations

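Among inflammatory genes, 0 of 22 tested were called, and members moved in both directions with separate libraries. Ptgs2, the inducible cyclooxygenase, was at 3069 and 2955 in WT and 1367 and 848 in Zbp1-/- (change -1.48, limma adjusted p = 0.0703), while complement C3 was at 51.8 and 33.6 in WT and 96.6 and 143 in Zbp1-/- (change 1.47, adjusted p = 0.0817). Cxcl14 was at 787 and 781 in WT and 1241 and 1391 in Zbp1-/- (change 0.74). Spp1, a secreted phosphoprotein of bone and macrophages, was at 19343 and 19490 in WT and 13303 and 11092 in Zbp1-/- (change -0.68). Gsta4, which detoxifies lipid peroxidation products, was at 186 and 198 in WT and 336 and 400.0 in Zbp1-/- (change 0.93, adjusted p = 0.0533). Among p53 targets the proapoptotic Pmaip1 was at 2256 and 2309 in WT and 1743 and 1096 in Zbp1-/- (change -0.72), while Cdkn1a was at 6611 and 6481 in WT and 7529 and 8608 in Zbp1-/- (change 0.30).

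The 2 libraries with the shared shift also differed from the other 6 in the listing of a gene and its processed copy. Atp6v0c, a proton pump subunit, was at 5117 in Zbp1-/- replicate 2 and 4810 in Tfam+/- replicate 1 and at 55.2 to 269 in the other 6 libraries. Atp6v0c-ps2 was listed at 0 in both of these libraries and at 3966 to 4476 in the other 6. The genes were chosen after their values were seen.

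Sim2, a transcription factor, fell from 465 and 479.8 in WT to 257 and 269.8 in Zbp1-/- (change -0.84) and was higher in Tfam+/-Zbp1-/-, at 282 and 251, than in Tfam+/-, at 174 and 178. Wdfy1, an adaptor of endosomal receptors, was at 411 and 498 in WT against 1702 and 1320 in Zbp1-/-, but at 351 and 417 in Tfam+/- cells against 424 and 511 without Zbp1. Penk, the precursor of enkephalins, was at 1199 and 1153 in WT against 2067 and 2461 in Zbp1-/-, and at 832 and 720 in Tfam+/- cells against 4820 and 4730 without Zbp1. These 3 genes were chosen after their values were seen.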
